A study of Homo sapiens with 12 samples.

Results

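The genes described here encode histone variants that are classed as replication-independent, which was not tested for any of them here. A list of 10 was taken by symbol from a table of 58395 genes, and each symbol matched exactly 1 row. H3F3A and H3F3B encode the core histone H3.3, H2AFZ and H2AFV encode both forms of H2A.Z, H2AFX encodes H2AX, H2AFJ encodes H2A.J, and H2AFY and H2AFY2 encode the macroH2A proteins. H1FX encodes the linker histone H1X. These 9 members are described. Reads were plentiful for 7 of the 10 (27030 to 129405 over all libraries). H2AFY2 and H2AFJ had 22 and 1 reads and were too low to be tested.

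RNA was sequenced from 3 human leukemia cell lines with 4 libraries each. K562 is an established line of chronic myeloid leukemia in blast crisis. K/VP.5 is a clonal K562 subline that tolerates etoposide, a poison of topoisomerase II. Edit-3 (K/VP.5/edit-3) is a clone of K/VP.5 that received Cas9 protein, a guide RNA and a single-stranded template, designed to change the splice donor between exon 19 and intron 19 of TOP2A, which encodes topoisomerase IIα. Clones were screened by genomic qPCR for the edited site, which gene counts do not read. The growth protocol names the 3 lines together as kept in medium with etoposide at 0.5 µM added on alternate weeks, so it does not separate exposed from unexposed lines. K/VP.5 and edit-3 are single clones, and the edit cannot be told apart from other differences between clones. Nothing in the labels tells separate cultures from repeat libraries, so a p-value here reflects only library-to-library spread, which may be technical.

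Most histone protein is made in S phase from clustered genes without introns whose mRNAs end in a stem-loop instead of a poly(A) tail. The variants are mostly made through the cell cycle from polyadenylated mRNAs, and can replace the canonical histones outside replication. H3.3 is placed by the HIRA and the ATRX-DAXX chaperones in active genes and in heterochromatin. H2A.Z is exchanged into promoter nucleosomes by the SRCAP and TIP60-p400 complexes, and H2AX is phosphorylated around DNA breaks, including those that etoposide leaves. MacroH2A carries a large globular domain beside the histone fold, and linker histones bind the DNA that enters and leaves the nucleosome.

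Paralogs of this family encode equal or nearly equal proteins from different bases, so reads can mostly be assigned to 1 gene of a pair, whereas a processed copy can be identical to its source. The first 90 coding bases show this for the H3.3 genes and for the processed copy H3F3AP4, with positions in GRCh38 from GENCODE release 29. They lie in 1 exon in H3F3A (chr1:226064352-226064441, plus strand) and in exon 2 of 4 in H3F3B (chr17:75779085-75779174, minus strand), and at chr2:174719908-174719997 (plus strand) in H3F3AP4. Capitals mark the 21 bases at which H3F3A and H3F3B differ, and any base of H3F3AP4 that differs from H3F3A would be in capitals.
H3F3A: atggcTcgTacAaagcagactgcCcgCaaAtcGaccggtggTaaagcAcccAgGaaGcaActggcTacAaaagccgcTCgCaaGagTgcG
H3F3AP4: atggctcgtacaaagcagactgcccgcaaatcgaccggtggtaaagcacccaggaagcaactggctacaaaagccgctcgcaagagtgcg
H3F3B: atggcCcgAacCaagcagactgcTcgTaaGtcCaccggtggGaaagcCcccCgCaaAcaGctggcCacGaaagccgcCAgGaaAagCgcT
Over all 411 coding bases H3F3A and H3F3B differed at 88, an identity of 78.6%. H3F3AP4 was identical to H3F3A at all 411, and the copy H3F3AP6 differed at 3. Whether the 18782 reads counted for H3F3AP4 came from that copy or from H3F3A was not tested. The H2A.Z genes are shown in the same way, with capitals at the 19 differing bases of H2AFZ (chr4:99949378-99950170, minus strand) and H2AFV (chr7:44841004-44847971, minus strand). These stretches span exons 1 to 3 of 5 in each gene.
H2AFZ: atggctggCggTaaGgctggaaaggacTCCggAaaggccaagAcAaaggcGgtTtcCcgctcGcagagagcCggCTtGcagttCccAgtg
H2AFV: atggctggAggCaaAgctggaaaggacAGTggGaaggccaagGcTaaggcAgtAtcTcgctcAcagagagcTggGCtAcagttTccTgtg
They differed at 76 of 387 coding bases. Of all 50-base stretches in the annotated transcripts of H3F3A, 11.7% also occurred in transcripts of another gene, most often H3F3AP4 and H3F3AP6. For H3F3B, H2AFZ and H2AFV the shares were 6.63%, 9.25% and 3.02%, and for H2AFX 0.311%. The 6 pseudogenes named after H3F3A held 15.5% of the reads of H3F3A and its pseudogenes together (14.7% to 16.3% by library). With their reads added to H3F3A, no call of that gene changed in any comparison. For H3F3B, H2AFZ and H2AFV the pseudogene share was 0.822%, 0.478% and 1.9%. These pairs and copies share sequence, so their values remain uncertain to that extent.

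The smallest library had 25.3 M counted reads and the largest 37.1 M. Protein-coding genes took 95.2% to 96.2% of them. The K562 markers GATA1, KLF1, TAL1, LMO2, HBG1, HBG2 and TFRC were above 1 CPM in every line, where CPM is the read count relative to the TMM-scaled library size. TOP2A, the edited gene, had 519.3 ± 25.8, 359 ± 14.5 and 416.1 ± 25.1 CPM in K562, K/VP.5 and edit-3 (SD, n = 4). Markers of other cell types were above 1 CPM in every line for 1 of 3 T cell genes (CD3D, at 50, 10.7 and 35.3 CPM in K562, K/VP.5 and edit-3), 0 of 3 monocyte or granulocyte genes, 2 of 3 fibroblast genes and 2 of 3 epithelial genes (EPCAM and KRT19). Over all libraries CD2 had 3 reads, the B cell gene MS4A1 had 0 and DCN had 5, each the lowest of its list. The count for the B cell list is not reported here. Summed levels ran from 37.4 to 77.2 CPM in K562, 7.82 to 16 in K/VP.5 and 19.4 to 50.4 in edit-3 for the T cell list, and from 289.2 to 462.7, 250.7 to 310.5 and 513.1 to 606.6 for the epithelial list. The part of these genes in the results was not tested. The fibroblast gene COL1A2 went from 6.82 CPM in K562 to 229.5 in K/VP.5 and 2491 in edit-3. The 71 protein-coding HIST genes, mostly replication-dependent, summed to 11233 to 13301 CPM in K562, 10952 to 12275 in K/VP.5 and 8387 to 10999 in edit-3. The sources used here do not state whether poly(A) RNA was selected.

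Levels of different genes were compared per kilobase of merged exons. H2AFX was the highest in each line, at 152.2 ± 17.3 CPM per kb in K562, 195.2 ± 18.4 in K/VP.5 and 143.4 ± 24 in edit-3 (SD, n = 4). In K562 it was followed by H2AFZ (140.9 ± 19.4) and H3F3A (108.7 ± 6.92), and the libraries of each neighbour in this order overlapped. H1FX (48.5 ± 7.63) and H3F3B (45 ± 5.73) overlapped too and lay below H3F3A. H2AFV stood at 25.4 ± 1.18 and H2AFY at 8.87 ± 0.439, each apart from the gene above it. In K/VP.5, H3F3A (102.2 ± 4.91) and H2AFZ (92.9 ± 7.4) came after H2AFX and overlapped each other, and H3F3B (55.3 ± 4.94) lay above H1FX (42.0 ± 2.06) without overlap. In edit-3 the same order held, although H2AFX now overlapped H3F3A, with H3F3B at 73.1 ± 8.61 and H1FX at 58.3 ± 2.8. The order depends on the length used. Per kilobase of the longest principal transcript H2AFZ led in K562 (331.4 against 261.4 for H3F3A and 152.2 for H2AFX), and H3F3A led in K/VP.5 (245.7) and edit-3 (266.5).

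Etoposide-resistant K/VP.5 was first set against parental K562. H3F3B and H2AFX rose and H2AFZ and H2AFV, the H2A.Z genes, fell, to 1.23, 1.28, 0.659 and 0.814 times the K562 level, while H3F3A, H2AFY and H1FX did not pass the test. Of the 7 members tested, 4 were called, 2 in each direction, where 36.6% of all 18286 genes tested were called (18.3% higher, 18.3% lower). Their median log2 fold change was -0.089, against 0.003 over all genes. Tests are edgeR's quasi-likelihood test, with p-values adjusted by Benjamini-Hochberg over all genes tested and a threshold of 0.05.

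**Figure D1:**
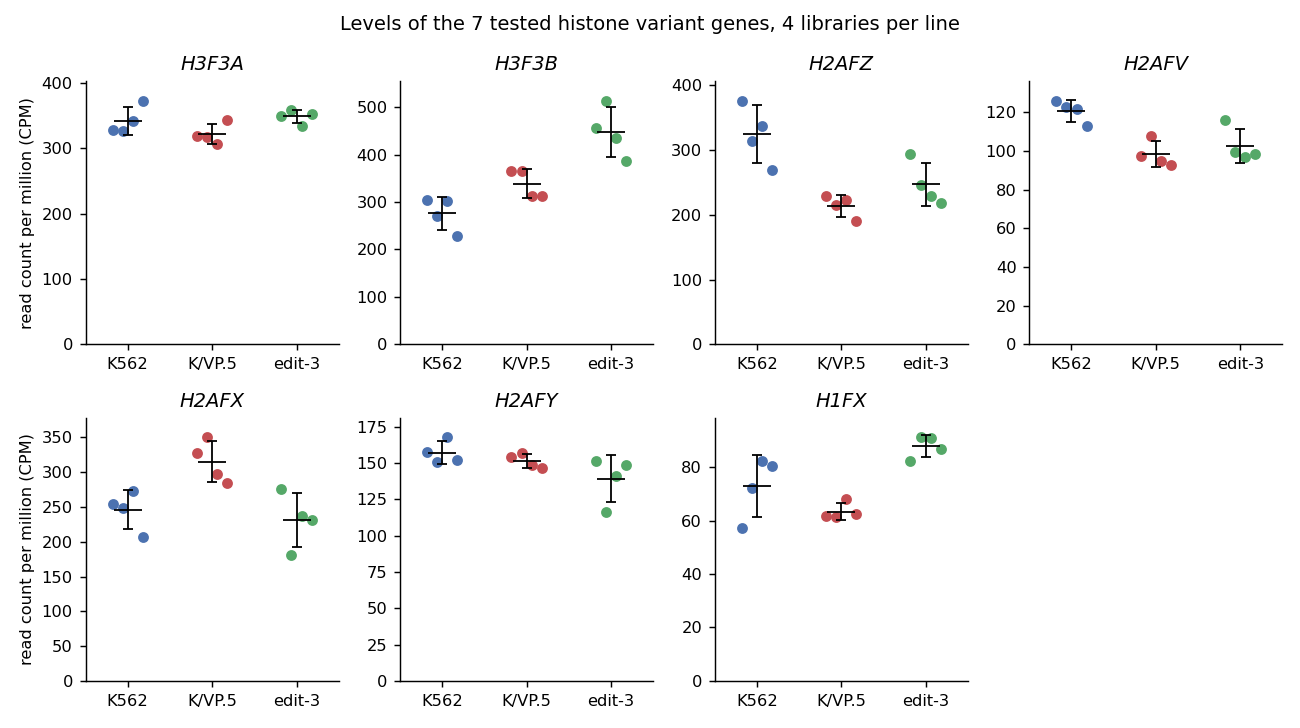
Read level in CPM (y axis from 0) of the 7 tested members in each line, where each point is a library, in replicate order, and the bars are the mean and SD of the 4 libraries. H3F3B is lowest in K562 and highest in edit-3, while H2AFZ is highest in K562 and H2AFX in K/VP.5.

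H2AFZ, the main H2A.Z gene (ENSG00000164032, chr4:99948086-99950388, minus strand), had 376.6, 314.5, 337.2 and 269.7 CPM in K562 replicates 1 to 4 and 228.5, 214.9, 222.5 and 189.7 in K/VP.5. Every K562 library was above every K/VP.5 library. The log2 fold change was -0.60 (SE 0.11, adjusted p = 0.00051), and the gene was called in each of the 18 other settings tried (log2 -0.68 to -0.52). H2AFV, which encodes the other H2A.Z (ENSG00000105968, chr7:44826791-44848083, minus strand), had 126.2, 122.7, 121.6 and 113.0 CPM in K562 and 97.7, 108, 95 and 92.8 in K/VP.5, again without overlap. Its log2 fold change was -0.30 (SE 0.077, adjusted p = 0.0067). Summed over both genes, H2A.Z reads went from 445.3 ± 49.9 CPM to 312.3 ± 20.1 (SD, n = 4).

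H3F3B, 1 of the H3.3 genes (ENSG00000132475, chr17:75776434-75785893, minus strand), had 303.6, 271.3, 301.7 and 228.4 CPM in K562 and 365.7, 365.1, 312.6 and 313.1 in K/VP.5. The lines did not overlap, and H3F3B was 1.23-fold higher (log2 0.30, SE 0.11, adjusted p = 0.039). Leaving out any of 4 libraries ended the call, namely K562 replicates 2 and 4 (adjusted p = 0.082 and 0.10) and K/VP.5 replicates 1 and 2 (adjusted p = 0.11 and 0.10). This fit ignores replicate number. With the number added as a block, a pairing that no label states, H3F3B was at 0.30 (adjusted p = 0.0052). H3F3A, which encodes the same protein (ENSG00000163041, chr1:226061851-226072001, plus strand), had 327.2, 326.3, 341.5 and 372.9 CPM in K562 and 319.3, 317.7, 305.9 and 342.8 in K/VP.5, and the lines overlapped. Its log2 fold change was -0.09 (SE 0.064, adjusted p = 0.31).

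H2AFX (ENSG00000188486, chr11:119093854-119095467, minus strand), an intronless gene for the variant that marks DNA breaks, had 254.6, 248.9, 272.8 and 206.6 CPM in K562 and 328.1, 350.2, 297.5 and 284.5 in K/VP.5. Each K/VP.5 library was above each K562 library, and the log2 difference was 0.36 (SE 0.12, adjusted p = 0.027). The same 4 libraries decided this call, with an adjusted p of 0.060 or 0.073 when K562 replicate 2 or 4 was left out and 0.074 or 0.095 for K/VP.5 replicate 1 or 2. With the replicate block and all libraries, H2AFX was at 0.36 (adjusted p = 0.016).

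H2AFY, the macroH2A1 gene (ENSG00000113648, chr5:135333900-135399914, minus strand), ran from 150.5 to 167.9 CPM in K562 and from 146.4 to 157.1 in K/VP.5, a log2 difference of -0.05 (SE 0.081, adjusted p = 0.67). Of its merged exon bases, 30.9% overlap antisense genes, mainly C5orf66, from which unstranded reads could not be separated. H1FX, the H1X gene (ENSG00000184897, chr3:129314771-129316277, minus strand), had 57.1, 72.1, 82.3 and 80.6 CPM in K562 and 61.7, 61.4, 68.0 and 62.4 in K/VP.5. Its log2 fold change of -0.21 did not pass (SE 0.099, adjusted p = 0.13). Without K562 replicate 1, the lowest library, it was -0.31 and passed (adjusted p = 0.0067). The antisense gene H1FX-AS1 covers 22.9% of the H1FX exon bases and held 234 reads against 27030 for H1FX.

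**Figure D2:**
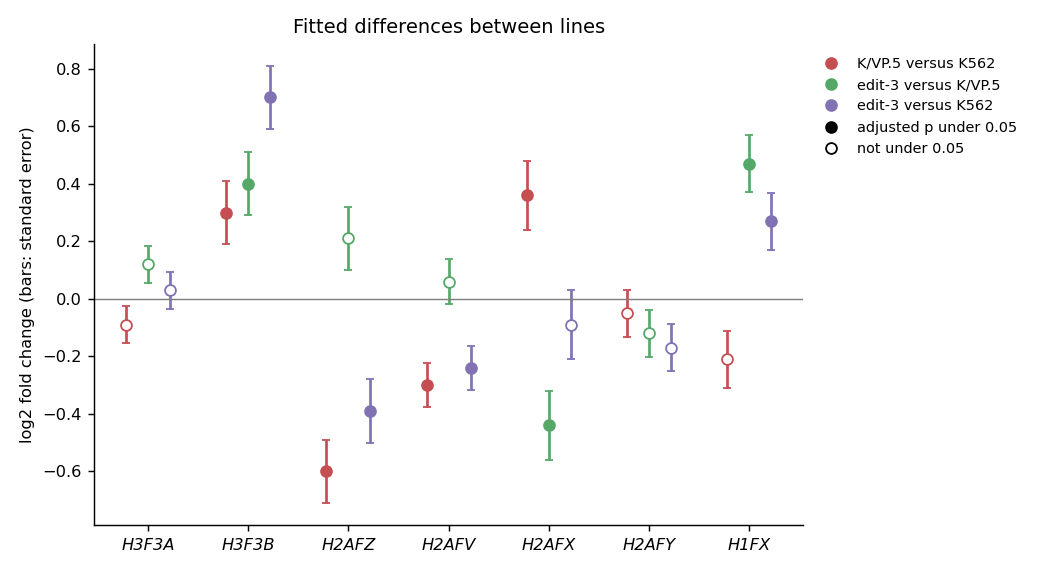
Log2 fold change (y axis) with its standard error for each tested member in the 3 comparisons, filled where the adjusted p was under 0.05. H3F3B lies above 0 in all 3 comparisons, H2AFX lies at 0.36 and then -0.44, and H3F3A and H2AFY are open throughout.

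Edit-3 was then set against K/VP.5, the line it was derived from. H3F3B rose further and H1FX rose, by 1.32-fold and 1.39-fold, and H2AFX fell by 0.44 on the log2 scale. Of the 7 members tested 3 were called, 2 higher and 1 lower, where 23.6% of all genes were called (12.9% higher, 10.6% lower). Their median log2 fold change was 0.117 against 0.004 over all genes. All 3 calls held in each of the 18 other settings.

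H3F3B had 457.1, 514.4, 435.5 and 387.1 CPM in edit-3 replicates 1 to 4, each above the highest K/VP.5 library at 365.7. The log2 fold change was 0.40 (SE 0.11, adjusted p = 0.011). H1FX had 82.3, 91.2, 91.0 and 86.9 CPM in edit-3, each above the highest K/VP.5 library at 68.0, a log2 difference of 0.47 (SE 0.099, adjusted p = 0.0028). H2AFX had 275.7, 181.5, 237.4 and 231.2 CPM in edit-3, all below the lowest K/VP.5 library at 284.5. Its log2 fold change was -0.44 (SE 0.12, adjusted p = 0.013).

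The other members did not pass in edit-3 versus K/VP.5. H2AFZ had 294.1, 246.4, 229.7 and 218.7 CPM in edit-3, overlapping K/VP.5 (log2 fold change 0.21, SE 0.11, adjusted p = 0.20). H2AFV had 115.9, 99.3, 96.7 and 98.6 CPM (0.06, SE 0.077, adjusted p = 0.62), H3F3A between 334.4 and 358.2 (0.12, SE 0.064, adjusted p = 0.21) and H2AFY between 116.2 and 151.7 (-0.12, SE 0.081, adjusted p = 0.32).

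Against K562, edit-3 had higher H3F3B and H1FX and lower H2AFZ and H2AFV. This comparison uses the libraries of the other comparisons again and is no separate support for them. Of 7 members tested 4 were called, 2 in each direction, where 39.2% of all genes were called (20.6% higher, 18.6% lower), and the median log2 fold change was -0.086 against 0.005. H3F3B was 1.62-fold higher (log2 0.70, SE 0.11, adjusted p = 8.3e-05), with every edit-3 library above every K562 library. H2AFZ was at -0.39 (SE 0.11, adjusted p = 0.010), although edit-3 replicate 1 at 294.1 CPM lay above K562 replicate 4 at 269.7. H2AFV was at -0.24 (SE 0.077, adjusted p = 0.024). Leaving out K562 replicate 1, edit-3 replicate 3 or edit-3 replicate 4 ended that call (adjusted p = 0.061, 0.069 and 0.059).

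H1FX was at 0.27 against K562 (SE 0.099, adjusted p = 0.045), and edit-3 replicate 1 equalled K562 replicate 3 at 82.3 CPM. The call ended without K562 replicate 1 (log2 0.16, adjusted p = 0.13), without K562 replicate 2 (adjusted p = 0.12) and without edit-3 replicate 2, 3 or 4 (adjusted p = 0.088, 0.098 and 0.097). It also ended with RLE factors, without a filter, with only these lines in the fit and with DESeq2 (adjusted p = 0.052, 0.056, 0.11 and 0.075). H2AFX, H3F3A and H2AFY did not pass, at -0.09, 0.03 and -0.17 (SE 0.12, 0.064 and 0.081, adjusted p = 0.61, 0.77 and 0.11).

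The division of reads within a pair does not depend on how libraries are scaled. H3F3B took 48.1%, 45.4%, 46.9% and 38.0% of the H3.3 reads in K562, 53.4%, 53.5%, 50.5% and 47.7% in K/VP.5 and 56.7%, 59.0%, 56.6% and 52.3% in edit-3. Replicate 4 had the lowest share in every line. The mean was 44.6% ± 4.6 in K562, 51.3% ± 2.7 in K/VP.5 and 56.1% ± 2.8 in edit-3 (SD, n = 4). These shares leave out pseudogene reads, which were 15.5% of the reads of H3F3A and its pseudogenes and 0.822% for H3F3B. With them added, each H3F3B share is lower, but no difference between lines turned in sign or passed the adjusted threshold. Edit-3 and K562 did not overlap, a difference of 11.5 percentage points (exact permutation test, two-sided, p = 0.029, the smallest that 4 against 4 libraries can give, adjusted p = 0.086 over the 9 share tests). K/VP.5 exceeded K562 by 6.68 points and edit-3 exceeded K/VP.5 by 4.85 points (exact permutation p = 0.057 and 0.086, adjusted 0.10 and 0.13). Between libraries of equal number, K/VP.5 was above K562 in 4 of 4 pairs, by 3.6 to 9.7 points.

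H2AFV took 27.3% ± 1.9 of the H2A.Z reads in K562, 31.5% ± 1.9 in K/VP.5 and 29.4% ± 1.2 in edit-3 (SD, n = 4). K/VP.5 ran from 29.9% to 33.5% and K562 from 25.1% to 29.5%, without overlap (difference 4.25 points, exact permutation p = 0.029, adjusted p = 0.086). Between libraries of equal number K/VP.5 was higher by 3.4 to 5.4 points. The direction in each pair follows from the lack of overlap and adds no support. Edit-3 overlapped both other lines, with differences of -2.12 points from K/VP.5 and 2.13 from K562 (exact permutation p = 0.11, adjusted 0.13 for each). No share test passed after adjustment.

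**Figure D3:**
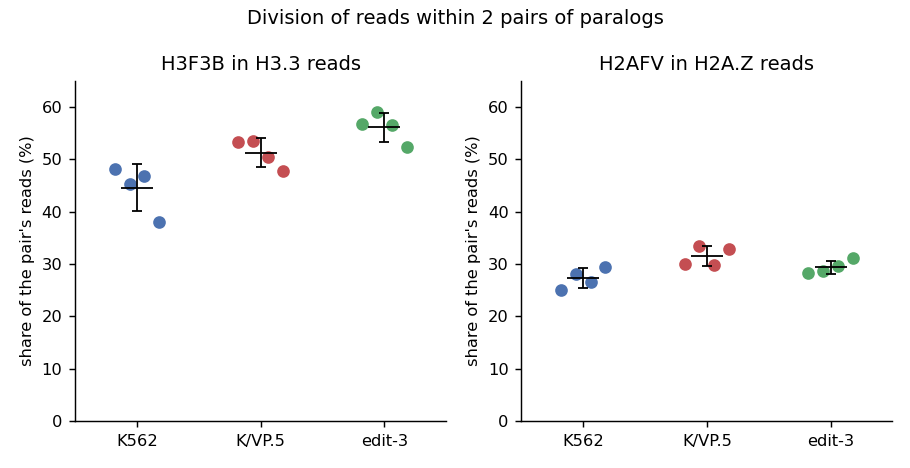
Share of the reads of each pair (percent, y axis from 0) that came from H3F3B or from H2AFV, with 1 point per library and the mean and SD of the 4 libraries of a line. H3F3B goes from a mean of 44.6% in K562 to 56.1% in edit-3, and H2AFV stays between 25.1% and 33.5% in all libraries.

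H2AFY2 and H2AFJ were close to undetected. H2AFY2, the macroH2A2 gene (ENSG00000099284, chr10:70052796-70112280, plus strand), had 2, 6, 3 and 6 reads in K562, 1 read in K/VP.5 replicate 3 and 2 reads each in edit-3 replicates 2 and 4. All 4 K562 libraries thus held reads, against 1 and 2 libraries in the other lines. Scaled for depth, K562 had 19.3 times the K/VP.5 level (exact 95% Poisson interval 3.03 to 808) and 4.58 times the edit-3 level (1.5 to 18.7), where the intervals cover counting error only. The gene was below the count filter. Without a filter edgeR gave K/VP.5 versus K562 an adjusted p of 0.007, and DESeq2 gave 0.014. For edit-3 versus K562 neither passed (adjusted p = 0.077 and 0.14). H2AFY2 made up 0.0986% ± 0.054 of macroH2A reads in K562, 0.0061% ± 0.012 in K/VP.5 and 0.0245% ± 0.029 in edit-3, and the share test for K/VP.5 versus K562 had an adjusted p of 0.086 (exact permutation p = 0.029).

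H2AFJ (ENSG00000246705, chr12:14774383-14778002, plus strand) had 1 read in edit-3 replicate 2 and 0 in the 8 libraries of the other lines, which allows up to 0.0266 CPM in K562 and 0.0233 in K/VP.5 (3 reads). At this depth no difference between lines was detectable for H2AFJ. No 50-base stretch of H2AFJ or H2AFY2 occurred in another annotated gene. Other genes overlap none of the exon bases of H2AFJ and 11 bases of H2AFY2.

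The genes around each member were examined for shifts in the same direction, using the 10 nearest tested genes on either side. Over all genes, 18.3% were called higher and 18.3% lower in K/VP.5 versus K562. The shares were 12.9% and 10.6% in edit-3 versus K/VP.5 and 20.6% and 18.6% in edit-3 versus K562. Around H2AFZ, over 3821 kb of chromosome 4, the median log2 change of the 20 neighbours was -0.41 in K/VP.5 versus K562, 17 had the sign of H2AFZ, and 10 were called lower and 1 higher. Against K562 the edit-3 median there was -0.33, with 9 called lower and 1 higher. Around H2AFX, over 377 kb of chromosome 11, the median was 0.21 in K/VP.5 versus K562 (7 higher, 3 lower) and -0.19 in edit-3 versus K/VP.5 (2 higher, 7 lower), with 14 of 20 sharing the sign of H2AFX in each. The part of such regional shifts in the values of H2AFZ and H2AFX was not tested. Around H3F3B the medians were 0.02 and 0.05 in the same comparisons, and around H1FX -0.09 and -0.01. H2AFY did not pass in edit-3 versus K562, while its neighbours had a median of 0.65, with 10 higher and 2 lower.

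**Figure D4:**
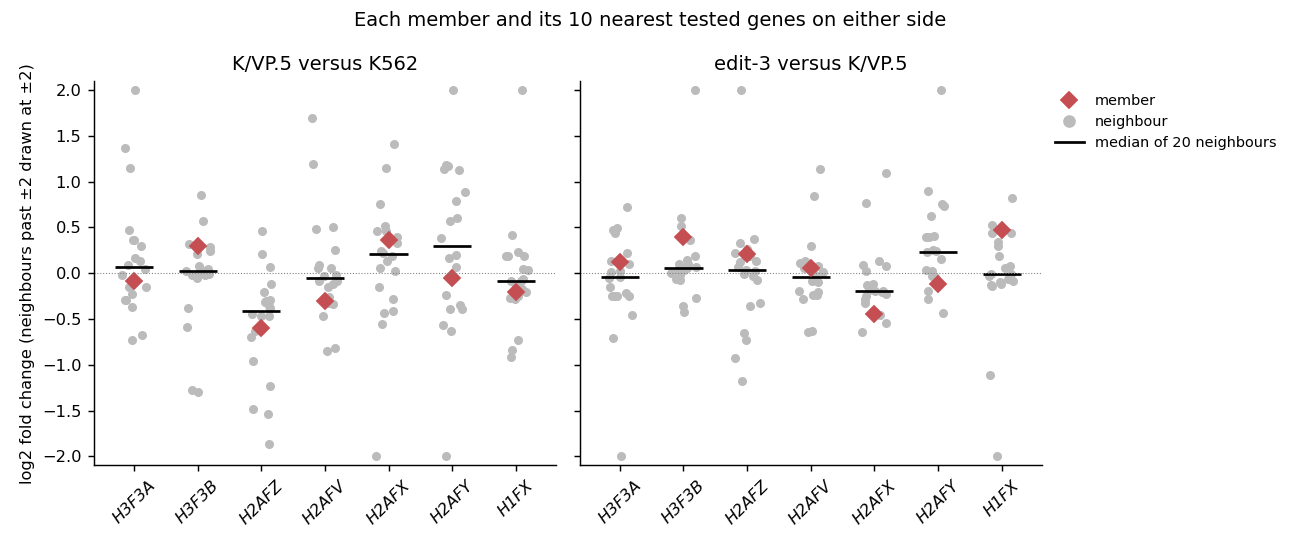
Log2 fold change (y axis) of each tested member and of its 20 neighbours in K/VP.5 versus K562 and in edit-3 versus K/VP.5, with the neighbours' median as a line and values past ±2 drawn at ±2. The H2AFZ neighbours lie mostly below 0 in the first comparison (median -0.41), and those of H3F3B centre near 0 (0.02 and 0.05).

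RefSeq promoter windows (GRCh38.p14, 250 bases before to 50 after a start site) were matched for the 9 members described, with 13 windows in all. The motif CCAAT, searched on both strands, was in 9 of the 13 windows, which belong to 7 of the 9 members, where 34.6% of all 35116 windows hold it. It occurred 4 times each before H3F3B, H2AFX and H2AFV and 3 times each before H2AFZ and H2AFJ, and it was in no window of H1FX or H2AFY2. TATAAA was found in 4 of the 13 windows, before H3F3B, H2AFZ, H2AFX and H1FX, between 29 and 31 bases upstream, where 11.5% of all windows hold it. The windows of the 3 core histone members with the largest changes are printed because they share both motifs but did not move together, with CCAAT (or ATTGG, its reverse) and TATAAA in capitals. They lie at chr17:75779730-75780029 for H3F3B, chr11:119095416-119095715 for H2AFX and chr4:99950226-99950525 for H2AFZ, all on the minus strand.
H3F3B: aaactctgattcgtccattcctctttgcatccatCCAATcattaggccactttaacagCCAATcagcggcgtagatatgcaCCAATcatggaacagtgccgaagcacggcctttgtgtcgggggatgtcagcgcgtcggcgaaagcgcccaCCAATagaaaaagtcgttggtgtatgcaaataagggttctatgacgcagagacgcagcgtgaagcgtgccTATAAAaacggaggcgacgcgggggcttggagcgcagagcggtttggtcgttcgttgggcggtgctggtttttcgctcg
H2AFX: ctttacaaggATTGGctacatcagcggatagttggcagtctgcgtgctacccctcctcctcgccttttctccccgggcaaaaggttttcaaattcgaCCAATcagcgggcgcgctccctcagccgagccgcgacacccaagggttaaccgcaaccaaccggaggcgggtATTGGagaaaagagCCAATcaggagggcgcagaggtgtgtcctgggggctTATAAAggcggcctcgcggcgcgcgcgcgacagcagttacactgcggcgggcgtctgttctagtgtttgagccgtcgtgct
H2AFZ: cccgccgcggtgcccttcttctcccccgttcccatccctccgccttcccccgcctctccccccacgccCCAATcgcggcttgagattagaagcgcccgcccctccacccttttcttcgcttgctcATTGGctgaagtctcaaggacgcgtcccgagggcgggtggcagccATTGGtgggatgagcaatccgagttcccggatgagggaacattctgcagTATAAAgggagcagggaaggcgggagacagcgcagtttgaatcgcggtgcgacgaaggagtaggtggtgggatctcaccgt
Among other motifs searched on both strands, GGGCGG was in 8 of the 13 windows (45% of all windows), TTTGAA in 2 (15.2%) and TTCGAA in 1 (1.45%). TGACGTCA, TTTGGCGC and TTTCCCGC were in none (1.85%, 0.652% and 1.63% of all windows). No match overlapped one of another motif. A match describes letters only and identifies no site.

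Of 12 genes that place H3.3 or handle free H3, 2 rose, 2 fell and 8 did not pass in K/VP.5 versus K562 (median log2 fold change 0.040). Over all genes, 18.3% were higher and 18.3% lower there. CABIN1, a subunit of the HIRA complex, rose from 199 ± 4.72 to 254 ± 15.2 CPM (log2 0.35, SE 0.076, adjusted p = 0.002). ATRX, the remodeler that works with DAXX, was at 0.24, which was lost in 5 of the 8 fits that left out 1 library (K562 replicates 2 and 3, K/VP.5 replicates 1, 3 and 4), with an adjusted p of up to 0.076. UBN1, another HIRA complex subunit, and DEK fell by 0.59 and 0.41 on the log2 scale (adjusted p = 2e-04 and 0.0022). In edit-3 versus K/VP.5, DEK and UBN1 rose by 0.43 and 0.39 (adjusted p = 0.0023 and 0.0083). Of the 12 genes, 9 did not pass, where 23.6% of all genes were called. HIRA itself was at -0.29 (adjusted p = 0.028), which was lost when K/VP.5 replicate 1, 2 or 3 or edit-3 replicate 2 or 4 was left out, with an adjusted p of up to 0.071. Against K562, 5 of 12 were higher in edit-3 and none lower, where 20.6% of all genes were higher and 18.6% lower, led by CHAF1B, a CAF-1 subunit (log2 0.31, adjusted p = 0.004).

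Of 18 genes of the H2A.Z exchange complexes, 2 rose and 1 fell in K/VP.5 versus K562 and 15 did not pass (median -0.029). Over all genes, 18.3% were higher and 18.3% lower there. KAT5, the TIP60 acetyltransferase, rose from 15.2 ± 0.484 to 20.8 ± 1.45 CPM (log2 0.46, SE 0.082, adjusted p = 0.00043) and EPC1 by 0.34, while the actin-related ACTL6A went from 70.6 ± 4.94 to 50.7 ± 1.58 CPM (log2 -0.48, adjusted p = 0.00043). In edit-3 versus K/VP.5, ACTL6A rose by 0.44 (adjusted p = 0.0015), and KAT5 was at -0.25 (adjusted p = 0.037). The KAT5 call ended without a filter (adjusted p = 0.13) and when K/VP.5 replicate 1, 2 or 3 or edit-3 replicate 1, 3 or 4 was left out, with an adjusted p of up to 0.11. Against K562, 7 of 18 were lower in edit-3 and none higher, where 18.6% of all genes were lower, and the median was -0.124. YEATS4 and SRCAP, both of the SRCAP complex, were at -0.51 and -0.34 (adjusted p = 0.011 and 0.0087).

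Of 13 genes listed for the phosphorylation of H2AX, the response to it at breaks or the removal of the phosphate, 10 were tested. In K/VP.5 versus K562, none rose and 2 fell, where 18.3% of all genes were higher and 18.3% lower. The 2 were RNF168, a ubiquitin ligase at breaks, and PPP4C, a phosphatase, at -0.30 and -0.28 (adjusted p = 0.0044 and 0.0072). In edit-3 versus K/VP.5, RNF168 rose from 68.9 ± 3.76 to 98.0 ± 6.08 CPM (log2 0.51, SE 0.073, adjusted p = 0.00012) and TP53BP1 by 0.29 (adjusted p = 0.0039), and none fell. Over all genes, 12.9% were higher and 10.6% lower there. The kinases ATM and PRKDC and the reader MDC1 were not called in either of these comparisons. Against K562, 2 were higher in edit-3 and 1 lower, where 20.6% of all genes were higher and 18.6% lower. PRKDC was at 0.24 (adjusted p = 0.014), a call lost when edit-3 replicate 4 was left out (adjusted p = 0.055), and PPP4C was at -0.24 (adjusted p = 0.016). RNF168 was at 0.21 (adjusted p = 0.036), which was lost in 5 of the 8 fits that left out 1 library (all but K562 replicate 4 and edit-3 replicates 1 and 2), with an adjusted p of up to 0.14, and without a filter (0.12) or when the fit held just these lines (0.092).

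Of 10 chaperones of linker and other histones, 4 fell and none rose in K/VP.5 versus K562, where 18.3% of all genes were lower and 18.3% higher. APLF, a chaperone that binds macroH2A, fell from 1.71 ± 0.849 to 0.248 ± 0.0667 CPM (log2 -2.75, SE 0.39, adjusted p = 5.1e-05), and NAP1L4 and SPTY2D1 fell by 0.45 and 0.53 (adjusted p = 0.00068 and 0.00032). In edit-3 versus K/VP.5, NAP1L1 fell from 387 ± 15.4 to 284 ± 11.5 CPM (log2 -0.45, SE 0.061, adjusted p = 8.1e-05). PTMA, which binds linker histones, was at -0.30 (adjusted p = 0.045), and that call ended in 6 of the 8 fits without 1 library (all but K/VP.5 replicate 3 and edit-3 replicate 1), with the stricter filter, with only these lines in the fit and with DESeq2 (highest adjusted p = 0.13). Against K562, 1 was higher and 4 were lower in edit-3, where 20.6% of all genes were higher and 18.6% lower. The lower ones included NAP1L1 at -0.79 and SPTY2D1 at -0.75 (adjusted p = 1.1e-07 and 1e-05) and APLF at -1.55 (adjusted p = 0.0024). The higher one, SSRP1, was at 0.18 (adjusted p = 0.042), which was lost in 5 of the 8 fits that left out 1 library (K562 replicates 2 and 4, edit-3 replicates 1, 3 and 4), with an adjusted p of up to 0.14. It was also lost with RLE factors, without a filter, when the fit held just these lines and with DESeq2, with an adjusted p of up to 0.15.

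Of 15 other non-canonical histone genes only 5 had enough reads. In K/VP.5 versus K562, 2 of the 5 were higher and none lower, where 18.3% of all genes were higher. In edit-3 versus K562, 3 were higher and none lower, where 20.6% of all genes were higher. HIST1H1T and HIST3H3, known from the testis, rose in K/VP.5 from 0.211 ± 0.0514 to 0.688 ± 0.191 CPM and from 0.23 ± 0.0883 to 0.558 ± 0.0357 CPM (adjusted p = 0.0089 and 0.020). The HIST3H3 call ended without K562 replicate 3 (adjusted p = 0.064). Both genes were also called higher in edit-3 than in K562, at 0.647 ± 0.43 and 0.609 ± 0.287 CPM (adjusted p = 0.012 and 0.0098). H3F3C, an H3.3-like gene that shares 50-base stretches with H3F3B, was at 2.52 ± 0.368 CPM in K562 and 4.03 ± 0.792 in edit-3 (log2 0.67, adjusted p = 0.006). CENPA, the centromeric H3, was between 23.5 and 24.4 CPM in all line means and did not pass in any comparison (lowest adjusted p = 0.69).

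Of 15 cell cycle genes, 2 rose and 1 fell in K/VP.5 versus K562 (median 0.018), where 18.3% of all genes were higher and 18.3% lower. RRM2 and TYMS, which supply nucleotides, were at 0.54 and 0.45 and the proliferation marker MKI67 at -0.44 (adjusted p = 0.00026, 0.00015 and 0.00049). In edit-3 versus K/VP.5 only CDK1 and TYMS were called, at 0.22 each, where 23.6% of all genes were called. Both calls ended without a filter (adjusted p = 0.15 for both) and in a fit limited to these lines (0.078 and 0.061). Each also ended in 7 of the 8 fits that left out 1 library, all but edit-3 replicate 3 for CDK1 and all but edit-3 replicate 2 for TYMS. Against K562, 3 were higher in edit-3 and 1 lower (median 0.101), where 20.6% of all genes were higher and 18.6% lower. TYMS, RRM2 and MCM7 were at 0.67, 0.52 and 0.18 and MKI67 at -0.34 (adjusted p = 2.8e-06, 0.00036, 0.034 and 0.003). The MCM7 call ended without a filter (adjusted p = 0.16). Among genes of red cell differentiation, HBG1, a fetal globin gene, and ALAS2, the heme synthesis enzyme of red cells, rose in K/VP.5 versus K562 by 0.79 and 0.61 (adjusted p = 0.0037 and 0.0036). SLC4A1, the anion exchanger of the red cell membrane, and HBE1, an embryonic globin gene, were at -3.26 and -1.45 (adjusted p = 3.7e-08 and 0.0011). In edit-3 versus K/VP.5, SLC4A1 and HBA2 rose by 1.92 and 0.55 (adjusted p = 1.4e-05 and 0.012), and ALAS2 was at -0.73 (adjusted p = 0.0016). Only called genes of the red cell list are named. Other genes of it did not pass in both comparisons, where 36.6% and 23.6% of all genes were called.

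For the 3 tested members whose line means spanned the widest range, the protein-coding genes with the highest Pearson correlation of log2 CPM over the 12 libraries were looked up. The libraries fall into 3 lines, so these values mostly describe line means. For H3F3B (range 0.70) they were CMPK2, a nucleotide kinase (r = 0.968, with 5.29 ± 1.2, 7.89 ± 1.39 and 12.5 ± 1.9 CPM in K562, K/VP.5 and edit-3), ZNF433 (0.958) and DDX58, the RNA sensor RIG-I (0.957). For H2AFZ (range 0.59) they were MAPRE2, a microtubule end-binding protein (0.973), SEC62 (0.965) and NR6A1, an orphan nuclear receptor (0.961). For H1FX (range 0.47) they were C11orf68 (0.930), ENTPD6 (0.906) and ADPRH (0.902).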

How the data were processed

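The authors deposited raw read counts per Ensembl gene for 12 libraries, as whole numbers that are not normalized. The tools named in the submitters' processing notes are HISAT2 2.1.0, featureCounts and Subread 1.5.1, with the build GRCh38. For the annotation release, the strand setting and reads with several matches, the value is not given in the sources used. Lines were taken from the source names and replicate numbers from the titles, because the free-text descriptions name the parental cells throughout. Of 58395 genes, 58275 matched GENCODE release 29 by identifier, which gave positions, exons and transcripts.

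In R 4.3.3 with edgeR 4.0.16, filterByExpr left 18286 genes, which held 99.89% of reads. All 12 libraries entered 1 model with a term for each line after TMM scaling, with robust quasi-likelihood tests, Benjamini-Hochberg adjustment over the genes tested and a threshold of 0.05. An SE is the log2 fold change divided by the square root of F. The procedure was also run on simulated counts drawn independently for each library, which did not test links between libraries of equal number. Shares within pairs were compared by exact permutation tests. Alternatives were RLE, upper-quartile and unscaled totals, no filter and a stricter filter, DESeq2 1.42.0, a replicate block, fits of only the compared lines, fits without each library, and pseudogene reads added to their source genes. The last of these and the block in fits of only the compared lines were chosen after seeing the data. Intervals and floors (3 reads) cover counting error only.

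The members and the 7 gene lists were chosen with earlier results of these data known. One member and some list and marker genes are not reported here, and the other members are all named. List genes named are, per comparison, among the 3 called genes with the largest change in each direction, apart from CENPA, ATM, PRKDC and MDC1, which were chosen after their values were seen. Genes of like pattern were sought for tested members only. Within lines, libraries differed by chi-square values of 6.68 to 67.4 per degree of freedom, so none looked like a copy of another. Between K562 and K/VP.5, deviations from the line means in libraries of equal number correlated at 0.66, 0.41, 0.27 and 0.78 over 10365 genes. On these correlations the numbers were taken to pair both lines, which no label states. The main fit and the main share tests hold no term for the number. It entered only the replicate block and the differences between libraries of equal number. Edit-3 replicates 1 and 4 correlated at 0.67 and 0.59 with K/VP.5 and at 0.75 and 0.52 with K562, each best with its own number. Edit-3 replicates 2 and 3 correlated at -0.18 and -0.17 with K/VP.5 and at 0.02 and -0.13 with K562. As the numbers matched for only part of its libraries, edit-3 was not taken as paired.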

Additional observations from a re-analysis of the deposited data

Results flagged for a closer look

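Among 27 sets of 4 libraries (7 members and the shares of 2 pairs in 3 lines), 2 held a library far from the other 3, where chance flags about 1 in 20 such sets. H2AFV was at 116 CPM (115.9) in edit-3 replicate 1, and the other edit-3 libraries lay between 96.7 and 99.3. H1FX was at 68.0 CPM in K/VP.5 replicate 3, and the other K/VP.5 libraries lay between 61.4 and 62.4.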

How the results depend on the processing

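Depth limits H2AFY2 and H2AFJ, and the 4 libraries per line limit shares, whose smallest possible p was 0.029. Fits without 1 library moved the number of members called from 4 to between 2 and 5 in K/VP.5 versus K562 and from 4 to between 2 and 4 in edit-3 versus K562, while edit-3 versus K/VP.5 stayed at 3. The lowest values came from leaving out K562 replicates 2 and 4 and K/VP.5 replicates 1 and 2, each alone, in the first, and without K562 replicate 1 or edit-3 replicate 3 or 4 in the second. The sign of values that were not called turned for H3F3A in edit-3 versus K562 without K562 replicate 2 (-0.012, range without 1 library -0.012 to 0.068), for H2AFV in edit-3 versus K/VP.5 without edit-3 replicate 1 (-0.005, range to 0.091) and for H2AFX in edit-3 versus K562 without edit-3 replicate 2 (0.014, range from -0.184). No direction of a tested member turned under RLE, upper-quartile or unscaled totals. With the replicate block, the number of genes called went from 6688 to 7681 for K/VP.5 versus K562, and no call of a member changed there. The block also brought H2AFZ in edit-3 versus K/VP.5 past the threshold (log2 0.20, adjusted p = 0.028), but not in a fit of only these lines (log2 0.19, adjusted p = 0.095). The labels state no pairing there, and edit-3 replicates 2 and 3 did not correlate best with their own number. It changed no other call of a member. With the block no share could pass the threshold, since 4 pairs allow no p below 0.125. The cause of these changes was not tested.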
